A study of Mus musculus with 9 samples.

Results

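Aminoacyl-tRNA synthetases are the enzymes that join each amino acid to its tRNA, and their genes were followed here in 2-cell stage mouse embryo pools after pronuclear transfer. The genes were found by symbol: 1 capital letter followed by ars with nothing, 1, 2 or 3 after it, together with Eprs, Farsa and Farsb. The rule gave 37 of the 19359 genes in the table, of which 18 encode cytosolic enzymes, 17 mitochondrial enzymes, and 2, Gars and Kars, both forms from a single gene. All 37 had at least 1 CPM (counts scaled to the library's total) in at least 3 of the 9 libraries and were tested. Symbols are printed as deposited, so the cytosolic enzymes carry their older names without a final 1, except Mars1. Tarsl2, a further cytosolic threonyl enzyme, has a symbol outside the rule and was not counted.

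Each library came from a pool of 3 embryos collected at 34 h after fertilization, and 3 libraries, called A, B and C, represent each of 3 groups. EPN embryos underwent early pronuclear transfer, LPN embryos underwent the transfer later, and SPN embryos underwent a sham transfer and are the control. The mice named in the labels were B6D2F1 females of 8 to 12 weeks, primed with hormones, and the labels also describe cytoplasts made by selective enucleation of germinal vesicle oocytes without saying which libraries, if any, used them. No label tells if pools within a group were made on different days or from different matings, so p-values measure the spread between these libraries only. In pools of whole embryos, fewer cells of a kind and less RNA per cell cannot be told apart.

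Cytosolic synthetases serve translation on cytosolic ribosomes. A separate, nucleus-encoded set is imported into mitochondria for the few proteins made there, and glutaminyl-tRNA in mitochondria is made by a detour through Ears2 and an amidotransferase. Several cytosolic enzymes sit together with scaffold proteins in the multisynthetase complex. The early mouse embryo lives on mRNA and mitochondria laid down in the oocyte while its own genome is switched on, and ATF4, the transcription factor of the amino acid response, is known to induce several cytosolic synthetase genes.

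Library totals ran from 7611781 to 15559218 reads, so that 1 read equalled 0.0643 to 0.131 CPM, and 3 reads, the limit that a count of 0 allows, at most 0.394 CPM. The embryo label fitted its markers: all 9 oocyte and 2-cell markers were present, with a summed 9748 to 15544 CPM in EPN, 11950 to 16498 CPM in LPN and 8584 to 10241 CPM in SPN libraries. Most of each sum was Dppa3, with 7362 to 12532 CPM in EPN, 9289.5 to 13678 CPM in LPN and 6599 to 8339 CPM in SPN libraries. In LPN against SPN, Tcstv3, Zfp352 and Zp3 rose, while Bmp15, Gdf9 and Nlrp5 fell (limma adjusted p from 0.00518 to 0.0494). Cumulus cell markers (7 of 12 in the table, Foxl2 at 0 in every library) summed to 25.1 to 54.9 CPM in EPN, 27.1 to 39.5 CPM in LPN and 30.5 to 46.2 CPM in SPN libraries. Sperm markers (4 of 6 in the table) summed to 1.80 to 6.95, 3.55 to 6.62 and 6.02 to 12.3 CPM in EPN, LPN and SPN libraries, and blood markers (2 of 6) to 33.9 to 79.8, 9.32 to 26.1 and 36.0 to 100.4 CPM. Hba-a1, a haemoglobin gene among the blood markers, fell in LPN against SPN (log2 difference -1.58, limma adjusted p = 0.0247). The part of other cells in the results below was not tested.

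The promoters of the 4 genes whose transcripts changed are shown first, since Tars differs from the other 3 in carrying an element of the amino acid response. Each runs from 250 bases before to 50 bases after the RefSeq start (GRCm38.p6), on the strand of the gene. Capitals mark matches to the ATF4 composite element TGATGNAA on either strand (TTNCATCA on the other). The places are chr9:123366677-123366976 (plus strand) for Lars2, chr1:128417367-128417666 (minus) for Dars, chr1:185362794-185363093 (plus) for Eprs and chr15:11399609-11399908 (minus) for Tars.
Lars2: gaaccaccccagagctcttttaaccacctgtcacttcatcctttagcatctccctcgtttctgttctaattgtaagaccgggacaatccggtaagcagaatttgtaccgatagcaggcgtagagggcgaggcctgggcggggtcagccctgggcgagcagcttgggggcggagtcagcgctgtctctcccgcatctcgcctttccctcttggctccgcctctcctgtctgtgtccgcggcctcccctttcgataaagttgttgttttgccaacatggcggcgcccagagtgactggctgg
Dars: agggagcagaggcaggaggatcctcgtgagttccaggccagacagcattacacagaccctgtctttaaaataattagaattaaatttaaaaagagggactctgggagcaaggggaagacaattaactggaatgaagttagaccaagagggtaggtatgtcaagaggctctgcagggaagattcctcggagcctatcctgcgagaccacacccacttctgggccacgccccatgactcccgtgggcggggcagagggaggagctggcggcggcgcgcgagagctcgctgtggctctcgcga
Eprs: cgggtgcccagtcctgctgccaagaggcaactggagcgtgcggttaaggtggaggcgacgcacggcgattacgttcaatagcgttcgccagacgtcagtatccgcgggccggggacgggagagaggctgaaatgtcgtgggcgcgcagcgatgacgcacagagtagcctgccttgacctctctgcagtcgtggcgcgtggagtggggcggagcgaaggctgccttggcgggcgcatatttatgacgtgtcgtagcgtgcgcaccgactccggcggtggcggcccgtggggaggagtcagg
Tars: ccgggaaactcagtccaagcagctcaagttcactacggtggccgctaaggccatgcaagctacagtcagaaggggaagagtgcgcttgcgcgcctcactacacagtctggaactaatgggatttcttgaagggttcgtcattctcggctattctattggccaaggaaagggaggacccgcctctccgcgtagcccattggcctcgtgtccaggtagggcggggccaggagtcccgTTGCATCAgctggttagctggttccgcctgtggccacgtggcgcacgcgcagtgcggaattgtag
The Tars promoter holds TTGCATCA 15 bases before its start. None of the other 3 holds this element, the NRF1 element GCATGCGC (GCGCATGC) or the element of ETS factors and GABP, which is CCGGAAG and reads CTTCCGG on the opposite strand.

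RefSeq promoters were matched to 27 of the 37 genes, 11 cytosolic, 14 mitochondrial and both dual ones; those without an entry include Cars, Hars, Hars2, Lars, Nars, Pars2, Rars, Vars and Wars. The ATF4 element was in 4 of 11 cytosolic promoters (Aars, Iars, Tars, Yars), in that of Gars and in 0 of 14 mitochondrial ones. That makes 5 of 27 genes, or 18.5%, against 4.51% of all 27025 genes with a promoter. Matches of 4 of these genes are printed below with their surroundings in the gene's own direction, with the match in capitals, to show where the searched letters lie.
Aars, chr8:111033840-111033869 (plus): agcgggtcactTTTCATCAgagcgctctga
Gars, chr6:55037960-55037989 (plus): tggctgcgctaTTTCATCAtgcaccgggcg
Iars, chr13:49682126-49682155 (plus): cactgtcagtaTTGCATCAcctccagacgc
Yars, chr4:129189895-129189924 (plus): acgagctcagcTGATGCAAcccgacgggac
The NRF1 element, bound by a factor known for driving nuclear genes of mitochondria, was in 3 of 14 mitochondrial promoters and in 0 of 11 cytosolic ones. That is 11.1% of all 27 matched genes, against 3.05% of all genes with a promoter.
Rars2, chr4:34614895-34614924 (plus): cggccccgtgtGCATGCGCactccacactt
Vars2, chr17:35667620-35667649 (minus): gagtcttttacGCATGCGCctgcgtgtccc
Vars2, chr17:35667594-35667623 (minus): tccccgcccacGCATGCGCgcgcacctcgc
Wars2, chr3:99141015-99141044 (plus): ccagaggacagGCGCATGCgtagtaagcac
The ETS and GABP element was in 9 of 27 genes (33.3%, against 9.93% of all genes): Cars2, Farsa, Gars, Kars, Mars1, Mars2, Rars2, Sars and Sars2. A match is a description of letters, not a shown binding site.

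Levels between genes are compared as CPM per kb of coding sequence, averaged over the 9 libraries. Cytosolic genes had a median of 21.3 CPM per kb, ranging from 0.434 for Vars to 109.3 for Rars. Mitochondrial genes had a median of 2.88 CPM per kb, ranging from 0.414 for Aars2 to 162.6 for Fars2. The dual genes Kars and Gars stood at 97.5 and 29.99 CPM per kb. Per coding kb, most mitochondrial enzymes were therefore scarce while 2 of them led the whole set. This lead rests on the choice of coding length, and levels per kb of whole transcript were not compared. The annotated transcript is 3.366 kb for 1.41 coding kb in Fars2 and 3.894 kb for 2.706 in Lars2. For Rars it is 2.109 kb for 1.98 coding kb.

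On this scale Fars2, the mitochondrial phenylalanyl enzyme, stood at the top. Lars2, the mitochondrial leucyl enzyme (118.9 CPM per kb), came next, then Rars, Nars (107.5) and Kars. Each of these 5 overlapped the next in its range over libraries: Fars2 ranged from 136.4 to 206.1, Lars2 from 37.9 to 259.5, and Rars from 52.5 to 199.6 CPM per kb. Iars (74.0), Farsb (68.5), Qars (65.8) and Dars (57.5) followed. At the low end stood Iars2 (0.871), Vars2 (0.544), Vars and Aars2, whose ranges also overlapped, each with a library at 0. On the plain CPM scale, 8 of 17 mitochondrial but 1 of 18 cytosolic genes averaged under 5 CPM, and 2 of 17 mitochondrial and 6 of 18 cytosolic genes averaged over 100 CPM.

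For 14 amino acids the cytosolic and the mitochondrial enzyme genes were set side by side per coding kb. The cytosolic gene was higher in 9 of 9 libraries for 8 of the 14: alanine, arginine, asparagine, histidine, isoleucine, serine, tryptophan and tyrosine. The mitochondrial gene was higher in 9 of 9 libraries for 3: leucine, phenylalanine and cysteine. Methionine (Mars2 above Mars1 in 8 of 9), threonine (Tars above Tars2 in 8 of 9) and valine (Vars2 above Vars in 7 of 9, both near the limit of detection) were mixed. The side of the methionine pair rests on the choice of coding length. Mars2 has 1.758 coding kb in a transcript of 11.29 kb, and Mars1 has 2.73 coding kb in one of 2.962 kb.

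The leucine pair was the most uneven towards mitochondria. Lars2 averaged 139.1 CPM per kb in EPN, 50.6 in LPN and 167.1 in SPN embryos, against 3.68, 2.25 and 2.30 CPM per kb for the cytosolic Lars in EPN, LPN and SPN embryos. For phenylalanine, Fars2 averaged 187.8, 141.4 and 158.6 CPM per kb in EPN, LPN and SPN embryos, while the 2 subunits of the cytosolic enzyme, Farsa and Farsb, averaged 44.9, 28.8 and 46.7. For isoleucine the cytosolic Iars averaged 73.2, 83.4 and 65.5 CPM per kb in EPN, LPN and SPN embryos, against 0.717, 0.721 and 1.17 CPM per kb for Iars2. The 3 groups kept the side of the diagonal that each of these pairs was on.

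**Figure D1:**
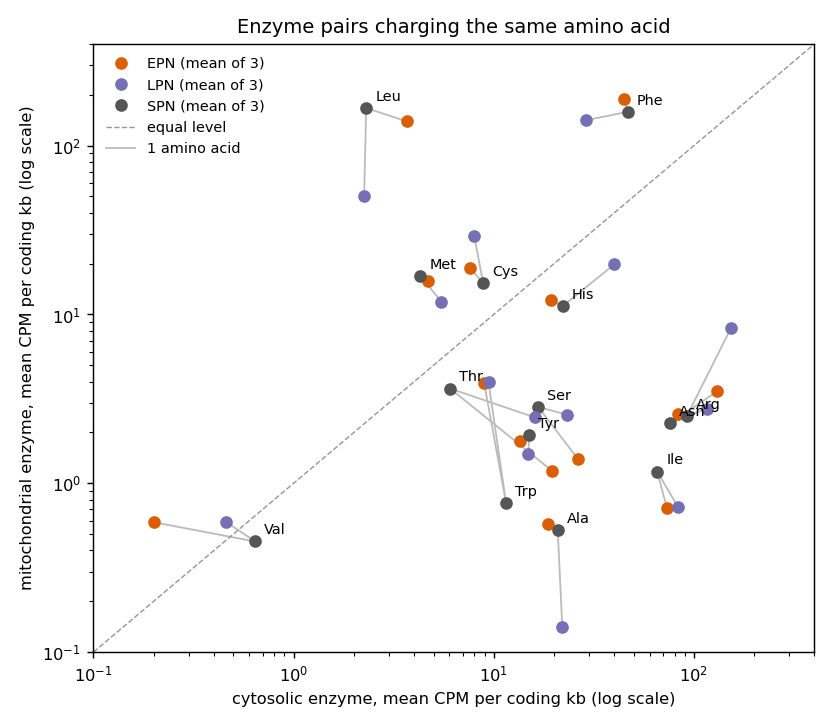
Mean level of the cytosolic (horizontal) and the mitochondrial (vertical) enzyme gene for 14 amino acids, in CPM per kb of coding sequence on log scales, with 1 point for each group of 3 libraries, grey lines joining the points of an amino acid and the name beside the SPN point. Leu, Phe, Met and Cys lie above the dashed line of equal level and most others below it; the LPN point of Leu lies lower than its EPN and SPN points, at 50.6 CPM per kb.

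Later transfer was compared with sham transfer to ask what a late procedure does to the embryo's RNA. Among the synthetases, the mitochondrial leucyl gene Lars2 fell and 3 cytosolic genes rose: Dars (aspartyl), Eprs (glutamyl-prolyl) and Tars (threonyl). With limma and Benjamini-Hochberg adjustment over all 14876 genes tested, 3 of 37 genes were higher in LPN and 1 was lower, where 3.26% of all genes tested were higher and 5.54% lower. Of the 18 cytosolic genes 3 rose and 0 fell, and of the 17 mitochondrial genes 0 rose and 1 fell. The unadjusted p was under 0.05 for 13 of 37 genes, against 26.9% of all genes, and the LPN and SPN libraries did not overlap for 12 of 37, against 27.5%. These shares lie near the background, so they are no result about the family. The count of called genes depended on single libraries: it was 7 without SPN A, 0 without SPN C, 1 without SPN B, LPN A, LPN B, EPN B or EPN C, 2 without EPN A and 3 without LPN C.

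Lars2 had 130, 102 and 179 CPM in LPN A, B and C, against 255, 399.75 and 702 CPM in SPN A, B and C. All LPN libraries lay below all SPN libraries, and the SPN libraries spread widely among themselves. The log2 difference was -1.63 (SE 0.32, adjusted p = 0.00352), a 3.09-fold lower level in LPN. This call held under 16 of 17 alternatives and was lost without SPN C (log2 difference -1.25, adjusted p = 0.0631).

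The row for 18S ribosomal RNA, Rn18s, whose mature form has no poly(A) tail, moved with Lars2. It had 1438, 898 and 2325 CPM in LPN A, B and C, against 2215, 2794 and 3371 CPM in SPN A, B and C, with a log2 difference of -0.93 (SE 0.30, limma adjusted p = 0.0477). In EPN A, B and C it had 2996, 2473 and 3267 CPM, where Lars2 had 483, 275 and 371 CPM. Within each group the library with the lowest Rn18s was also the one with the lowest Lars2, except that EPN A, not EPN C, was highest for Lars2. Lars2 amounted to 12.9% ± 2.83 of Rn18s in EPN, 9.37% ± 1.88 in LPN and 15.5% ± 4.79 in SPN libraries (SD, n = 3 each). The part of ribosomal RNA reads in the Lars2 values was not tested.

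Dars had 146, 132 and 130.3 CPM in LPN A, B and C, against 85.7, 74.0 and 45.5 CPM in SPN A, B and C. The LPN libraries were close together and all higher. The log2 difference was 1.03 (SE 0.32, adjusted p = 0.0405), or 2.04-fold, and it held its call under 7 of 17 alternatives, with log2 differences from 0.76 without SPN C (adjusted p = 0.234) to 1.21.

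Eprs, whose product charges both glutamate and proline tRNAs, had 148, 165 and 158 CPM in LPN A, B and C, against 83.5, 88.0 and 77.4 CPM in SPN A, B and C. Both groups were tight and well apart. The log2 difference was 0.91 (SE 0.30, adjusted p = 0.0481), or 1.88-fold, called under 6 of 17 alternatives and at 0.86 without SPN C (adjusted p = 0.177).

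Tars had 43.8, 20.1 and 40.5 CPM in LPN A, B and C, against 15.6, 16.6 and 7.17 CPM in SPN A, B and C. LPN B came close to the SPN libraries without overlapping them. The log2 difference was 1.35 (SE 0.44, adjusted p = 0.0499), or 2.54-fold, called under 5 of 17 alternatives and at 0.99 without SPN C (adjusted p = 0.252).

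**Figure D2:**
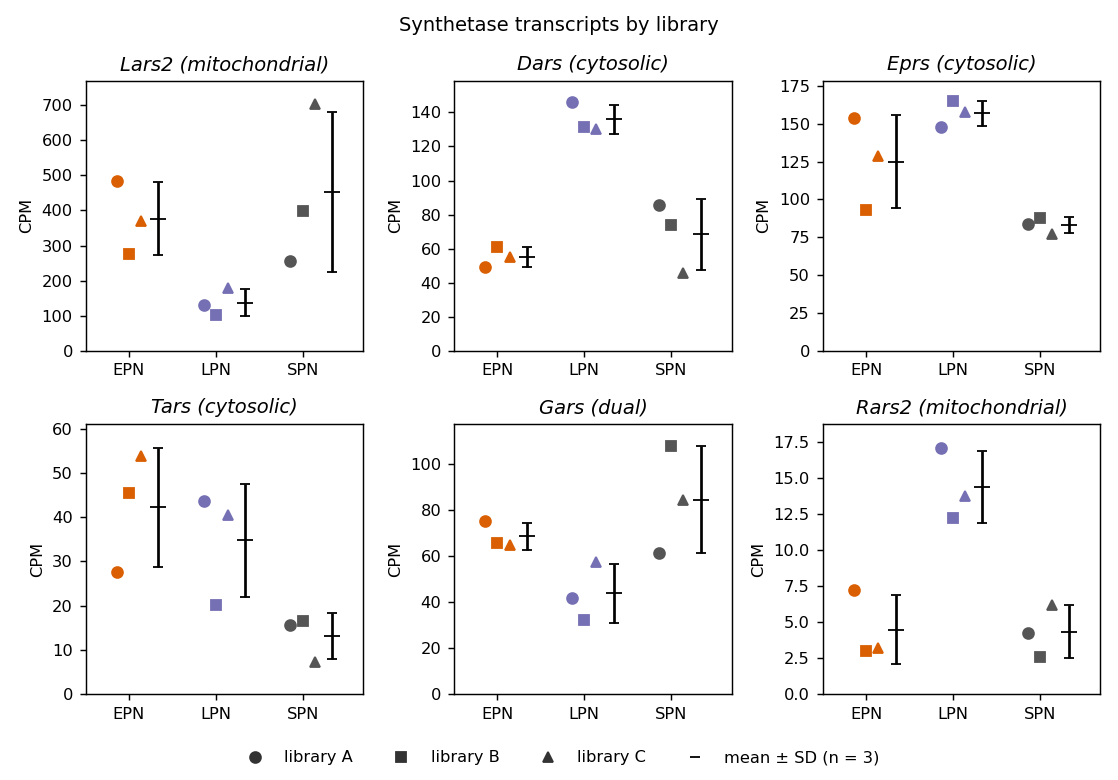
CPM of 6 synthetase genes in each library (point shapes for A, B and C) of the EPN, LPN and SPN groups, left to right, with mean ± SD of 3 libraries as bars. Lars2 is at 102 to 179 CPM in LPN libraries, below every EPN and SPN library, while Dars and Rars2 are higher in LPN than in any EPN or SPN library.

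Among the mitochondrial enzymes that did not pass the threshold, Rars2, the arginyl enzyme, came nearest. It had 17.1, 12.2 and 13.7 CPM in LPN A, B and C, against 4.23, 2.57 and 6.21 CPM in SPN A, B and C, with a log2 difference of 1.57 (SE 0.59, limma adjusted p = 0.0823). Every LPN library was above every SPN library. Wars2 (tryptophanyl) had 2.57, 2.50 and 7.79 CPM in LPN A, B and C, against 0, 1.51 and 0.962 CPM in SPN A, B and C, a log2 difference of 1.49 (SE 0.64) on few reads. Cars2 (cysteinyl) differed by 0.94, Hars2 (histidyl) by 0.99, Ears2 (glutamyl) by 0.82, Yars2 (tyrosyl) by 0.30, Nars2 (asparaginyl) by 0.11 and Vars2 (valyl) by 0.05. Mars2 (methionyl) differed by -0.84, Aars2 (alanyl) by -0.67, Iars2 (isoleucyl) by -0.49, Tars2 (threonyl) by -0.46, Fars2 (phenylalanyl) by -0.15, Pars2 (prolyl) by -0.14 and Sars2 (seryl) by -0.06. The median log2 difference of the 17 mitochondrial genes was 0.05, beside -0.17 over all genes tested.

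Of the cytosolic genes below the threshold, Hars (histidyl) differed by 0.85, Rars (arginyl) by 0.74, Nars (asparaginyl) by 0.66, Sars (seryl) by 0.55, Lars (leucyl) by 0.43, Iars (isoleucyl) by 0.34, Mars1 (methionyl) by 0.16 and Aars (alanyl) by 0.12. Yars (tyrosyl) differed by -0.02, Farsa by -0.08, Qars (glutaminyl) by -0.16, Cars (cysteinyl) by -0.17, Wars (tryptophanyl) by -0.51 and Vars (valyl) by -0.78. The median of the 18 cytosolic genes was 0.25 on the log2 scale, beside -0.17 over all genes tested. That median was -0.067 without SPN A, so its sign rested on that library.

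Farsa and Farsb encode the 2 subunits of the cytosolic phenylalanyl enzyme. Farsb had 113, 60.7 and 73.6 CPM in LPN A, B and C, against 141, 124 and 162 CPM in SPN A, B and C, a log2 difference of -0.82 (SE 0.31, limma adjusted p = 0.0865). Farsa had 19.0, 16.8 and 14.1 CPM in LPN A, B and C, against 8.38, 22.9 and 27.1 CPM in SPN A, B and C, a difference of -0.08 (SE 0.50). The LPN and SPN libraries were apart for Farsb and overlapped for Farsa, and neither passed the threshold. The difference between the 2 genes was not tested.

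The 2 dual genes both leaned lower in LPN without passing. Gars, for glycine, had 41.7, 31.9 and 57.5 CPM in LPN A, B and C, against 61.3, 108 and 84.2 CPM in SPN A, B and C, a log2 difference of -0.94 (SE 0.34, limma adjusted p = 0.0733). Kars, for lysine, had 159, 123 and 216 CPM in LPN A, B and C, against 174, 250.6 and 221 CPM in SPN A, B and C, a log2 difference of -0.40 (SE 0.29, limma adjusted p = 0.391). Only Gars kept its LPN libraries apart from SPN.

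**Figure D3:**
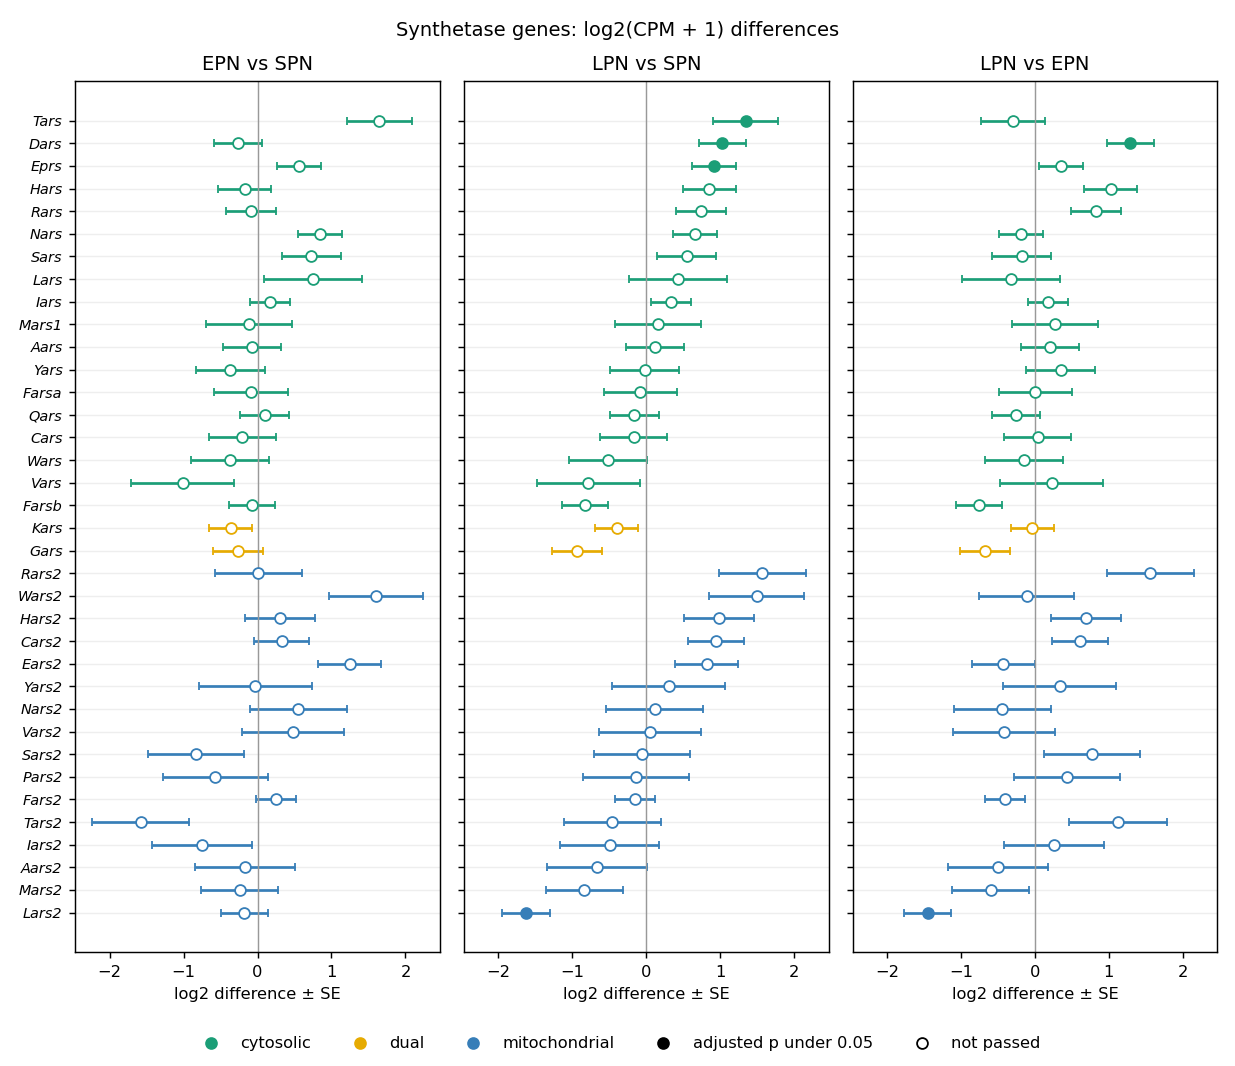
Log2 difference (log2 of CPM + 1) with its SE for 36 synthetase genes in the 3 comparisons, ordered within cytosolic, dual and mitochondrial genes by the LPN against SPN value; filled points passed an adjusted p under 0.05. No point is filled for EPN against SPN, 4 for LPN against SPN (Tars, Dars, Eprs, Lars2) and 2 for LPN against EPN (Dars, Lars2).

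Early transfer was compared with sham transfer in the same fit. None of the synthetases passed: with limma 0 of 37 genes were called, where 0.0739% of all genes tested were higher and 0.0336% lower. The unadjusted p was under 0.05 for 5 of 37 genes, against 11% of all genes, edgeR called 0 and DESeq2 called 1, Tars. The EPN and SPN libraries did not overlap for 6 of 37 genes, against 14.6% of all genes. Leaving out SPN A gave 2 calls. Medians on the log2 scale were -0.08 for cytosolic and -0.03 for mitochondrial genes, beside -0.07 over all genes.

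Tars had the smallest p. It had 27.5, 45.5 and 53.9 CPM in EPN A, B and C, against 15.6, 16.6 and 7.17 CPM in SPN A, B and C, a log2 difference of 1.64 (SE 0.44, limma adjusted p = 0.121). All EPN libraries lay above all SPN libraries, as the LPN libraries did. Both comparisons share the SPN libraries.

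Ears2, which charges mitochondrial tRNAs with glutamate, had 28.0, 41.8 and 31.4 CPM in EPN A, B and C, against 18.1, 13.0 and 10.3 CPM in SPN A, B and C (log2 difference 1.24, SE 0.43, limma adjusted p = 0.266). Nars had 213, 210.3 and 234 CPM in EPN A, B and C, against 179, 119 and 84.1 CPM in SPN A, B and C (log2 difference 0.84, SE 0.30, limma adjusted p = 0.278). Wars2 had 3.40, 3.91 and 5.39 CPM in EPN A, B and C, against 0, 1.51 and 0.962 CPM in SPN A, B and C (log2 difference 1.60, SE 0.64, limma adjusted p = 0.346). For these 3 genes every EPN library exceeded every SPN library. Tars2 differed by -1.58 (SE 0.66, limma adjusted p = 0.361) with overlapping libraries.

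Dars, Lars2 and Rars2 showed little of this. Their log2 differences in EPN against SPN were -0.26 (SE 0.32), -0.18 (SE 0.32) and 0.01 (SE 0.59), and their libraries overlapped. Eprs lay between, with 154, 92.8 and 128 CPM in EPN A, B and C, all above the 3 SPN libraries, and a log2 difference of 0.56 (SE 0.30, limma adjusted p = 0.486). Gars and Kars differed by -0.26 (SE 0.34) and -0.36 (SE 0.29).

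Later and early transfer were compared directly by setting LPN against EPN. Since the labels do not give the day or mating of the pools, timing cannot be told apart from such differences between the groups. Lars2 fell and Dars rose, and no other synthetase passed. By limma, 1 of 37 genes was higher and 1 lower, where 0.692% of all genes tested were higher and 0.84% lower. The unadjusted p was under 0.05 for 7 of 37 genes, against 19.3% of all genes, and the groups did not overlap for 9 of 37, against 26.6%. The count of 2 became 0 without EPN A, EPN C, LPN A or LPN B, and 1 without EPN B.

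Lars2 had 130, 102 and 179 CPM in LPN A, B and C, against 483, 275 and 371 CPM in EPN A, B and C. The log2 difference was -1.45 (SE 0.32, adjusted p = 0.0243), a 2.73-fold lower level in LPN with no overlap. Rn18s differed by -1.003 (SE 0.30, limma adjusted p = 0.0719) in the same comparison. Lars2 held its call under 10 of 17 alternatives, with log2 differences from -1.66 to -1.25.

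Dars had 146, 132 and 130.3 CPM in LPN A, B and C, against 49.4, 61.2 and 54.8 CPM in EPN A, B and C. This was a 2.45-fold higher level (log2 difference 1.29, SE 0.32, adjusted p = 0.0389), with both groups tight. It held its call under 9 of 17 alternatives, with log2 differences from 1.21 to 1.43.

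Hars had 67.1, 57.4 and 58.4 CPM in LPN A, B and C, against 34.7, 27.9 and 26.3 CPM in EPN A, B and C (log2 difference 1.02, SE 0.36, limma adjusted p = 0.117). Rars2 had 17.1, 12.2 and 13.7 CPM in LPN A, B and C, against 7.23, 2.97 and 3.22 CPM in EPN A, B and C (log2 difference 1.56, SE 0.59, limma adjusted p = 0.139). The libraries were apart for both genes. Medians were 0.11 for cytosolic and 0.26 for mitochondrial genes on the log2 scale, beside -0.14 over all genes.

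Iars, the cytosolic gene of the highest mean CPM, and Vars and Aars2, the cytosolic and mitochondrial genes of the lowest, were not called in any comparison. Iars had 289, 244 and 299 CPM in EPN A, B and C, 279, 281 and 388 CPM in LPN A, B and C, and 208, 271 and 264 CPM in SPN A, B and C. Vars had 0.289, 2.03 and 0 CPM in EPN, 0, 0 and 5.28 CPM in LPN and 1.29, 4.61 and 1.49 CPM in SPN libraries A, B and C. Aars2 had 0.289, 4.77 and 0 CPM in EPN, 0.578, 0 and 0.670 CPM in LPN and 0, 1.59 and 3.06 CPM in SPN libraries A, B and C. Vars had 0 to 63 and Aars2 0 to 61 reads per library, each with 3 libraries at 0, and their groups overlapped throughout.

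Summed by compartment, the cytosolic genes gave 1409 ± 119 CPM in EPN, 1633 ± 127 CPM in LPN and 1240.5 ± 69.3 CPM in SPN libraries (SD, n = 3 each). The mitochondrial genes gave 787 ± 105 CPM in EPN, 520.3 ± 67.9 CPM in LPN and 806 ± 201 CPM in SPN libraries. The ratio of the cytosolic to the mitochondrial sum was 1.68, 1.81 and 1.91 in EPN A, B and C, 3.18, 3.302 and 2.98 in LPN A, B and C, and 2.04, 1.67 and 1.13 in SPN A, B and C. Every LPN library had a higher ratio than every EPN and SPN library, with means of 1.80 ± 0.116, 3.15 ± 0.164 and 1.61 ± 0.458 in EPN, LPN and SPN; no test was made on these sums.

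Lars2 accounted for much of this. It made up 47.3% ± 7.61 of the mitochondrial sum in EPN, 26.0% ± 3.94 in LPN and 53.8% ± 14.2 in SPN libraries, and Lars2 with Fars2 made up 81.2%, 64.7% and 83.3%. With Lars2 left out, the ratio was 3.45 ± 0.444 in EPN, 4.26 ± 0.00821 in LPN and 3.51 ± 0.0945 in SPN libraries. With Lars2 and Fars2 both left out, the other 15 mitochondrial genes summed to 146 ± 1.17 CPM in EPN, 184 ± 28.9 CPM in LPN and 130 ± 11.3 CPM in SPN libraries. The lower mitochondrial sum in LPN thus turned into a higher one without these 2 genes.

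**Figure D4:**
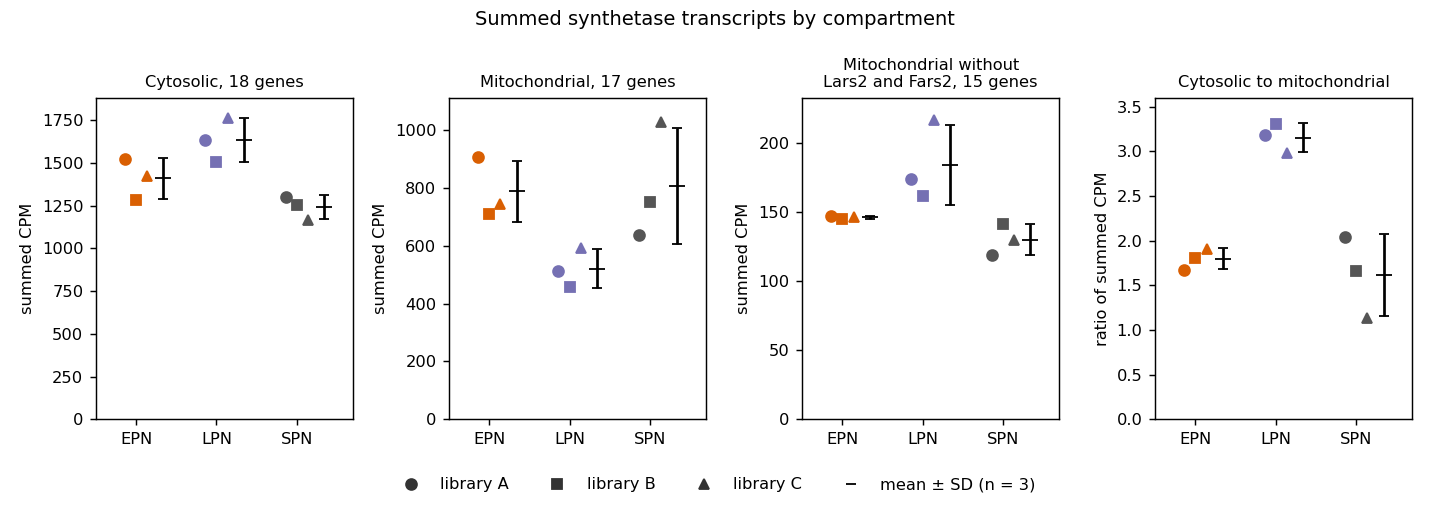
Summed CPM of the 18 cytosolic genes, the 17 mitochondrial genes and the 15 mitochondrial genes other than Lars2 and Fars2, and the ratio of the cytosolic to the whole mitochondrial sum, in each library of EPN, LPN and SPN (left to right), with mean ± SD of 3 libraries as bars. The LPN ratios, 2.98 to 3.302, lie above all EPN and SPN ratios.

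The multisynthetase complex holds 8 of the synthetases: Eprs, Dars, Rars, Iars, Lars, Mars1, Qars and Kars. In LPN against SPN, 2 of the 8 rose (Eprs and Dars) and 0 fell, where 3.26% of all genes rose and 5.54% fell, and the median log2 difference was 0.38, beside -0.17 over all genes. Against EPN 1 of 8 rose, where 0.692% of all genes rose, with a median of 0.22, beside -0.14. In EPN against SPN 0 of 8 were called, where 0.0739% of all genes rose and 0.0336% fell, with a median of 0.00, beside -0.07. Among its 3 scaffold proteins, Aimp2 and Eef1e1 rose in LPN against SPN and Aimp1 did not pass.

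Aimp2 had 213, 163 and 197 CPM in LPN A, B and C, against 164, 86.8 and 47.2 CPM in SPN A, B and C (log2 difference 1.10, SE 0.34, limma adjusted p = 0.0378). Eef1e1 had 129, 136 and 109 CPM in LPN A, B and C, against 59.9, 52.6 and 59.8 CPM in SPN A, B and C (log2 difference 1.10, SE 0.32, limma adjusted p = 0.0300). LPN and SPN libraries were apart for Eef1e1, while for Aimp2 SPN A reached into the LPN range. Aimp1 differed by 0.80 (SE 0.68, limma adjusted p = 0.466).

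**Figure D5:**
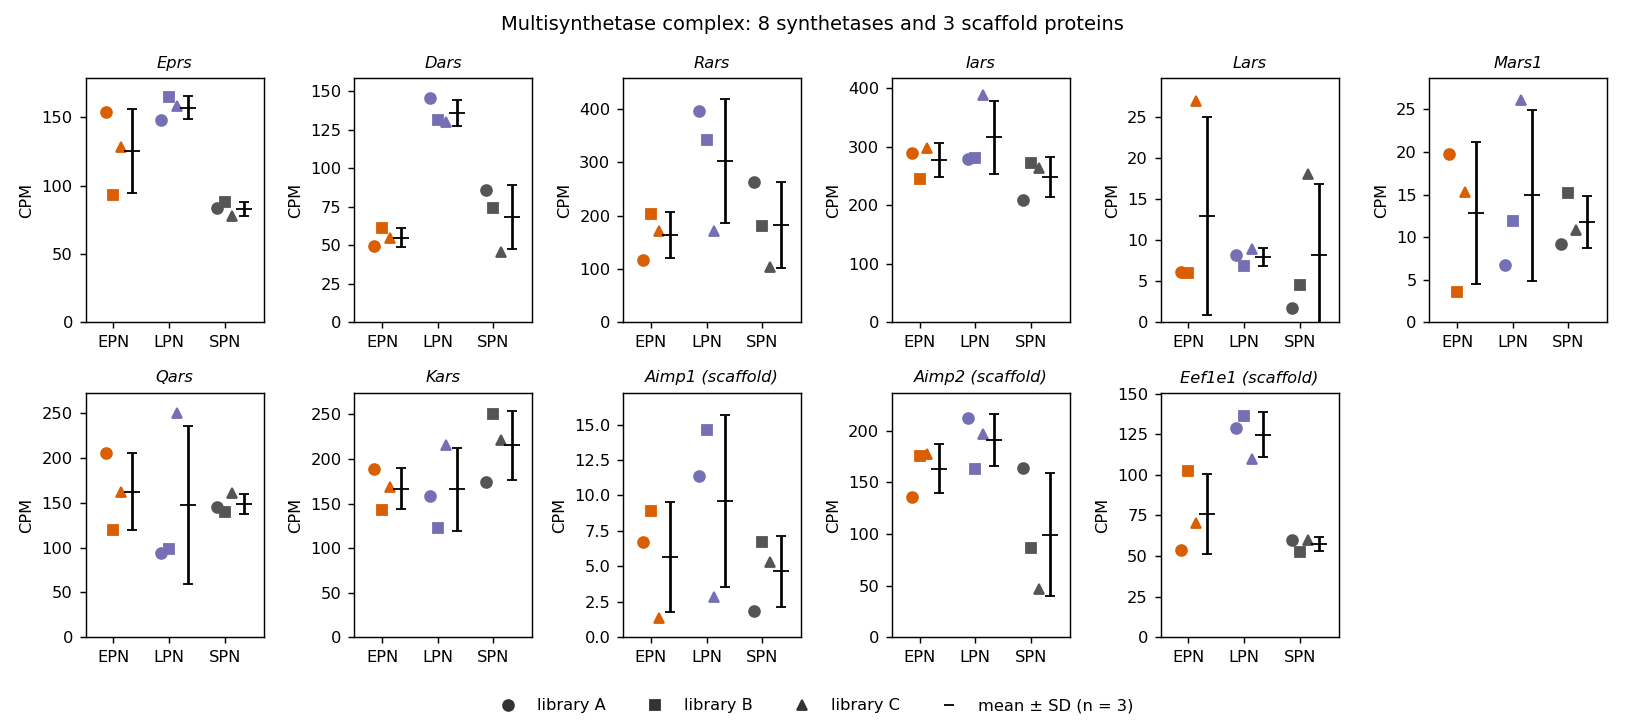
CPM of the 8 synthetases and the 3 scaffold proteins of the multisynthetase complex in each library of EPN, LPN and SPN (left to right), with mean ± SD of 3 libraries as bars, whose lower ends stop at 0. Eprs, Dars and Eef1e1 have all LPN libraries above all SPN libraries, at 148 to 165, 130.3 to 146 and 109 to 136 CPM.

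Beyond the complex, genes that act next to the synthetases were counted from lists, to be read beside the 3.26% of all genes that rose and the 5.54% that fell in LPN against SPN. Of 7 genes that proofread or hydrolyse mischarged tRNA, Dtd1, which removes D-amino acids from tRNA, and Prorsd1, a relative of prolyl editing domains, rose in LPN against SPN (log2 differences 1.84 and 1.16, limma adjusted p = 0.0444 and 0.0378). Of 24 genes for tRNA end processing and export 2 rose, both subunits of ribonuclease P: Rpp38 (1.80, adjusted p = 0.00819) and Rpp14 (0.98, adjusted p = 0.0268). Rpp38 also rose in LPN against EPN (1.65, adjusted p = 0.0389). The share of risers among these 24 genes lies near that background. Their median was 0.39 in LPN against SPN, beside -0.17 over all genes. No gene of either list was called in EPN against SPN, where 0.0739% of all genes rose and 0.0336% fell.

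In the same comparison, with its shares of 3.26% higher and 5.54% lower, few translation factor genes were called. Of 8 cytosolic elongation factor genes, Eif5a2 rose in LPN against SPN (log2 difference 1.23, limma adjusted p = 0.0421), while Eef1b2 (-1.07, adjusted p = 0.0378) and the kinase Eef2k (-1.48, adjusted p = 0.0277) fell. Of 12 mitochondrial translation factor genes 1 rose, Mtres1 (0.999, adjusted p = 0.0264), which is also known as a factor of mitochondrial transcription. The 4 genes for mitochondrial glutaminyl-tRNA amidation and methionyl-tRNA formylation gave 0 calls in any comparison, and the smallest unadjusted p belonged to Mtfmt in EPN against SPN (1.09, adjusted p = 0.447). Selenocysteine tRNA charging gave 0 of 6, and the smallest unadjusted p belonged to Pstk in LPN against EPN (2.07, adjusted p = 0.151). Of all genes, 0.0739% rose and 0.0336% fell in EPN against SPN, and 0.692% rose and 0.84% fell in LPN against EPN. Beside such low shares, 0 of 4 and 0 of 6 are no result about these genes.

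The amino acid response list held 26 genes, 24 of them tested. In LPN against SPN 1 rose and 3 fell, where 3.26% of all genes rose and 5.54% fell, with a median log2 difference of -0.70 beside -0.17 over all genes. The riser was Ddit3 (CHOP), at 254, 357 and 211 CPM in LPN A, B and C, against 80.3, 103 and 108 CPM in SPN A, B and C (log2 difference 1.46, SE 0.29, limma adjusted p = 0.00382). The genes that fell were Mthfd2 (-1.28, adjusted p = 0.00752), of mitochondrial folate metabolism, and the amino acid transporter genes Slc3a2 (-0.999, adjusted p = 0.0394) and Slc7a1 (-2.13, adjusted p = 0.0299). Slc7a1 was near the limit of detection in LPN, at 0, 0 and 1.34 CPM in A, B and C, against 3.44, 6.56 and 4.81 CPM in SPN. It was also low in EPN A, B and C, at 0.867, 0.781 and 0.749 CPM (-1.69 against SPN, limma adjusted p = 0.290). In LPN against EPN Asns, asparagine synthetase, fell (-3.06, adjusted p = 0.0378), where 0.692% of all genes rose and 0.84% fell. Asns was near the limit of detection in LPN, at 3.21, 0 and 0 CPM in A, B and C. In EPN A, B and C it had 23.6, 6.64 and 12.0 CPM. In EPN against SPN 0 of 24 were called, where 0.0739% of all genes rose and 0.0336% fell.

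Atf4 itself differed by -0.03 in LPN against SPN (SE 0.32, limma adjusted p = 0.970). Of the 5 synthetases with its element in the promoter, 1 passed the threshold in LPN against SPN, where 3.26% of all genes rose and 5.54% fell. With so few genes, this count is no result about the element. Tars differed by 1.35, Iars by 0.34, Aars by 0.12, Yars by -0.02 and Gars by -0.94. The part of ATF4 in these values was not tested.

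Some rows may mix reads of neighbouring genes, since no source says that counting used strand. In GENCODE M21, exons overlap another gene for Iars2 (22.9% of its exon bases, with Rab3gap2) and Aars (14.3%, Exosc6), and to a smaller extent among others for Farsb, Fars2, Vars2, Hars, Hars2, Cars2, Nars2, Cars, Mars1, Ears2 and Yars. Exosc6 lies on the same strand as Aars, so counting by strand would not separate those rows. Lars2, Dars, Eprs, Tars, Gars, Kars and Rars2 have no exon overlap with another gene. Mars1 shares 1.99% of its exon bases with Ddit3 on the opposite strand.

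Several synthetase genes start back to back with a neighbour within 1000 bases on the opposite strand: Hars with Hars2, Rars2 with Orc3, Sars2 with Mrps12, Fars2 with Lyrm4, Kars with Terf2ip, Yars with S100pbp and Ears2 with Ubfd1. Orc3, a subunit of the origin recognition complex, starts 13 bases from Rars2. It had 23.6, 45.7 and 19.9 CPM in LPN A, B and C, against 9.24, 4.96 and 5.42 CPM in SPN A, B and C (log2 difference 1.98, SE 0.49, limma adjusted p = 0.0131). Rars2 and Orc3 both had every LPN library above every SPN library, where 27.5% of all genes had groups that did not overlap. In EPN against SPN the 2 genes differed. Orc3 had 17.5, 13.7 and 14.8 CPM in EPN A, B and C, all above SPN (log2 difference 1.15, SE 0.49, limma adjusted p = 0.375). Rars2 differed there by 0.01 (SE 0.59) with overlapping libraries. In the Hars and Hars2 pair the log2 differences in LPN against SPN were 0.85 and 0.99, neither passing. The neighbours in other pairs were not called: Ubfd1 differed by -0.50 beside 0.82 for Ears2, Mrps12 by 0.47 beside -0.06 for Sars2, and S100pbp by 0.34 beside -0.02 for Yars. Lyrm4 differed by -1.41 beside -0.15 for Fars2, and Terf2ip by -0.50 beside -0.40 for Kars.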

How the data were processed

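The authors deposited 1 table of CPM values (counts scaled to the library total) for 9 libraries. Per the labels' protocols, poly(A) RNA from pools of 3 embryos was amplified with a Smart-seq2 v4 kit, tagged with Nextera XT and read in pairs on a NovaSeq. The tools named are HISAT2 2.2.1, edgeR, R 3.3.3 and Trim Galore 0.6.7, with the build GRCm39, per the submitters' processing notes. How reads were counted, with which annotation and strand setting, is not given in the sources used here. All deposited values were whole multiples of 1 read for 100% of values (tolerance 0.01), which gave back each library's reads. Of the totals, 3.66 to 4.40% in EPN, 4.57 to 5.68% in LPN and 3.74 to 4.14% in SPN libraries lay outside the table. The share was thus higher in every LPN library than in any EPN or SPN library.

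Genes reaching 1 CPM in 3 or more libraries were tested with limma 3.58.1 (R 4.3.3) on log2(CPM + 1), with 9 libraries in 1 fit, a spread shared by the groups and Benjamini-Hochberg adjustment over all genes tested; a call is an adjusted p under 0.05. This scale understates changes of low genes. Alternatives were another pseudocount, other filters, median-of-ratios scaling, the count tests of edgeR 4.0.16 and DESeq2 1.42.0 on recovered reads, a replicate block, the 6 libraries of a comparison alone, and leaving out each library. The script was tested on simulated data with changes larger than those of the synthetases, which does not show how well changes of their size are found. Libraries are given for genes called, for the 4 of smallest p in each comparison, for the highest and lowest of each compartment, and for Farsa, Farsb, Gars and Kars; others were added after their values were seen. The genes and lists were chosen with earlier results of these data known. Coding lengths and neighbours come from GENCODE M21 and promoters from RefSeq, both on GRCm38, a build older than the authors'. Values of 1 gene and 1 sequence are not reported here.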

Additional observations from a re-analysis of the deposited data

Results flagged for a closer look

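The effects of later and of early transfer, both against the same sham libraries, differed for 2 synthetase genes by limma. Since the sham libraries cancel, this is the LPN against EPN comparison of the report and no further result: 1.29 on the log2 scale for Dars (adjusted p = 0.0389) and -1.45 for Lars2 (adjusted p = 0.0243). Both calls were lost without EPN A, EPN C, LPN A or LPN B, and that of Dars also without EPN B, with adjusted p up to 0.196 for Dars and 0.195 for Lars2. For Fars2 all 3 LPN libraries lay below and all 3 EPN libraries above the SPN mean, and the difference of -0.40 did not pass the test (adjusted p = 0.426).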

How the results depend on the processing

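The number of synthetase genes called depended on the settings. For EPN against SPN it was 0, with 1 by DESeq2 and 0 to 2 on leaving out a library. For LPN against SPN it was 4, with 2 at a pseudocount of 0.1 CPM, 1 without a filter, 2 by edgeR, 7 by DESeq2, 1 with the 6 libraries alone and 0 to 7 on leaving out a library. For LPN against EPN it was 2, with 0 at that pseudocount, without a filter and by edgeR, 5 by DESeq2 and 0 to 2 on leaving out a library. Alternatives were run for 12 results of single synthetase genes (Dars, Ears2, Eprs, Hars, Lars2, Nars, Rars2, Tars and Wars2), and none of these changed direction; genes outside the family had none. Median log2 differences of cytosolic genes ranged on leaving out a library from -0.22 to 0.17 (EPN against SPN), -0.067 to 0.41 (LPN against SPN) and -0.17 to 0.27 (LPN against EPN). Those of mitochondrial genes ranged from -0.21 to 0.21, -0.19 to 0.23 and -0.20 to 0.37 in the same comparisons. At a mean of at least 5 CPM the mitochondrial median was 0.51 for LPN against SPN (0.31 by edgeR), while LPN against EPN gave 0.61. The cytosolic to mitochondrial ratio with Gars and Kars counted as cytosolic was 2.10 in EPN and 3.55 in LPN, and per coding kb 1.53 and 2.45. Without Lars2, an alternative chosen after seeing the data, it was 3.45 in EPN, 4.26 in LPN and 3.51 in SPN. The cause of these shifts was not tested.

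Median-of-ratios scaling moved the median of all genes in LPN against SPN to -0.02, against -0.17 as deposited, and gave 675 higher among 1216 calls, against 485 among 1309 as deposited; in LPN against EPN it gave 127 of 179, against 103 of 228. Deviations of genes from their group means, not the levels themselves, correlated at -0.024 to 0.092 between same-letter libraries of different groups. These low values gave little sign of pairing by letter. With the letter as replicate block, 0, 4 and 2 synthetase genes were called in early against sham, later against sham and later against early. Over all genes the block gave 25, 1644 and 480 calls in the same order, against 16, 1309 and 228 without it. Calls over all genes thus rose with the block, and whether the letters pair the samples was not settled. In later against sham, calls over all genes were 471 by edgeR and 1826 by DESeq2. On leaving out a library they ranged from 96 without SPN C to 2733 without SPN A, with 204 without LPN B and 448 without SPN B. The shares of all genes given beside the calls are those of the main fit. Low genes such as Vars and Aars2 had no reads in some libraries.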

Other observations

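Synthetases fall into 2 structural classes, and Eprs, which has a domain of each, was counted in neither. Class I, which includes Lars2, had 0 of 18 genes higher and 1 lower in LPN against SPN, with a median log2 difference of 0.10, where 3.26% of all genes rose and 5.54% fell. Class II, which includes Dars and Tars, had 2 of 18 higher and 0 lower, with a median of 0.02. The difference between the classes was not tested. The genes for tRNA end processing and export had positive log2 differences for 20 of 24 in LPN against EPN, with a median of 0.45. Over all genes tested 43.3% were positive, with a median of -0.14. Of the 24 genes 1 was called, where 0.692% of all genes rose and 0.84% fell.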
